A study of Mus musculus with 4 samples.

Results

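The 41 genes described here encode the machinery that copies DNA in S phase, and they were followed across the human cells of a breast cancer xenograft. They were chosen by symbol, as a list of replication and S-phase genes, from 36601 genes in the deposited count tables, and all 41 were found. The cells were human CD45+ cells, that is leukocytes, sorted from tumors of MDA-MB-231, a human triple-negative breast cancer line that had been placed in the mammary fat pad. The hosts were MISTRG mice, which carry human genes for myeloid growth factors and had received fetal human CD34+ stem cells as irradiated newborns, so the immune cells were human although the organism label is mouse. Of 14 mice, 7 were untreated and 7 received maraviroc dissolved in drinking water (300 mg/l). Treatment lasted 10 days, beginning on day 21, and the tumors were collected on day 31. Each mouse carried 1 hashtag antibody, whose name gives the treatment. Reaction 1 pooled 4 untreated and 3 treated mice, and reaction 2 pooled 3 untreated and 4 treated mice. Which stem cell donor each mouse received is not given in the sources used here.

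Replication begins when CDC6 and CDT1 load the MCM helicase onto origins. CDC45, the GINS complex and MCM10 then switch the helicase on. Primase and polymerase alpha start each strand, RFC loads the PCNA clamp, polymerases delta and epsilon extend, and FEN1 and LIG1 complete the lagging strand. RRM1, RRM2, TYMS and TK1 supply nucleotides. E2F1 and the E cyclins drive entry into S phase, and RNA of these genes is widely read as a mark of dividing cells. Blood monocytes are mostly out of cycle, while activated lymphocytes can divide fast.

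After demultiplexing, 11917 cells of reaction 1 and 7900 of reaction 2 were kept, with a median of 3020 and 9692 UMIs (unique molecular identifiers, counted per captured transcript). The 2 reactions shared 136 barcode sequences, 31 of them among kept cells. Cells were put into classes by the UMIs of lineage markers, with no clustering. This gave 1273 NK cells, 2874 T cells, 4050 macrophages, 3320 monocytes, 387 dendritic cells and 77 tumor cells. In no class were 7343 cells, 37.1% of those kept. They made up 48.7% of reaction 1 and 19.5% of reaction 2, with a median of 2463 and 10339 UMIs. Levels are given in CPM, the UMIs of a gene per 1000000 UMIs of all genes. CD3D, a T cell receptor subunit, stood at 907 CPM in T cells, 152 in NK cells and 6.51 in monocytes, and the complement gene C1QA at 2148 CPM in macrophages and 25.4 in NK cells. Both genes are among the lineage markers of the class rules, so these contrasts follow from the rules and are no separate check. UMIs were summed over the cells of a mouse in a class where there were at least 10, and errors and tests are over mice. Tests of treatment set a difference against the spread between mice. Tests between classes, or between cells of a class, set it against the variation left once each mouse is a block.

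Among NK cells, T cells, macrophages, dendritic cells and monocytes taken as whole classes, NK cells had the highest mean level of replication RNA and monocytes the lowest. The summed level of all 41 genes was 2355 ± 260.3 CPM in NK cells (SD, n = 14 mice), 1631 ± 352 in T cells (n = 12), 978 ± 157 in macrophages (n = 14), 694 ± 435 in dendritic cells (n = 14) and 504 ± 113 in monocytes (n = 14). The lowest NK sum, 1997 CPM, lay above the highest macrophage sum, 1215 CPM, while NK and T cells overlapped, since T cells reached 2267 CPM. Dendritic sums ran from 252 to 1739.5 CPM around a median of 486 and overlapped those of T cells, macrophages and monocytes. Of the 41 genes, 39 had their highest mean level in NK cells. The exceptions were CCNE1, highest in T cells (6.42 CPM), and POLD1, highest in macrophages. The lowest mean was in monocytes for 33 genes, in dendritic cells for 7 and in macrophages for 1. T cells were not uniform. Those with at least 2 CD8A or CD8B UMIs reached 2384 ± 372 CPM (n = 11), FOXP3 T cells 1401 ± 267 (n = 12) and the other CD8-negative T cells 1273 ± 479 (n = 11). Tumor cells gave 3 mouse sums, 374, 379 and 512 CPM, from 11, 10 and 11 cells and all from treated mice. Over all 77 tumor cells, pooled over mice, the sum was 646 CPM.

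**Figure D1:**
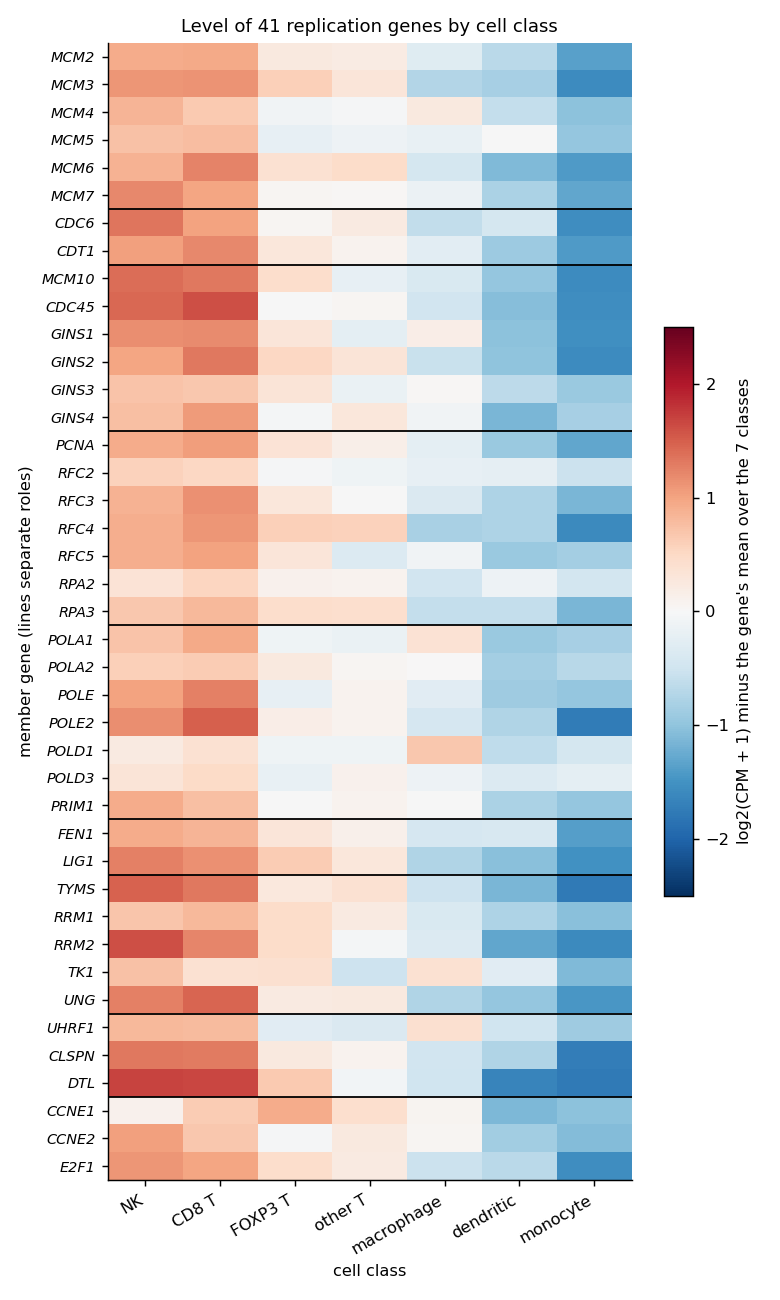
Level of each of the 41 genes (rows, grouped by role) in 7 cell classes (columns), as log2 of the mean CPM over mice plus 1, minus the gene's own mean over the classes. With T cells taken as a whole class, NK cells were highest among NK, T, macrophage, monocyte and dendritic cells for 39 genes and monocytes lowest for 33.

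Levels of different genes are not compared with each other, because 3' UMIs also depend on how well each transcript was captured. RRM2, the regulated subunit of ribonucleotide reductase, stood at 199.6 ± 49.5 CPM in NK cells (lowest 134, median 192, highest 285), at 103 ± 29 in T cells (55.2, 102, 144) and at 21 ± 11 in monocytes (3.62, 20, 43.6). PCNA, the sliding clamp, was at 125 ± 28.3 CPM in NK cells (70, 131, 156), 92.6 ± 27.2 in T cells, 54.7 ± 13.1 in macrophages (32.8, 57.7, 78.2) and 26 ± 8.48 in monocytes. RRM2 of NK cells and monocytes did not overlap, and PCNA of NK cells overlapped that of macrophages. MCM5, a helicase subunit, was at 87.2 ± 19.6 CPM in NK cells and 26.3 ± 8.85 in monocytes, and its dendritic level of 51.7 ± 30.4 overlapped that of macrophages, 46.1 ± 6.56. E2F1, a transcription factor of S-phase entry, was at 19.8 ± 6.81 CPM in NK cells and 2.29 ± 1.68 in monocytes. The single-strand binding subunit RPA2 had a narrower range of means, with 60.5 ± 14.1 CPM in NK cells, 55.5 ± 13.3 in T cells, 43.5 ± 15.6 in dendritic cells, 33.7 ± 4.66 in macrophages and 34.1 ± 5.21 in monocytes. CCNE1 and GINS3 did not exceed 6.42 and 4.98 CPM in these 5 classes.

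The remaining steps of replication were read through 1 or 2 genes each. The helicase loader CDC6 stood at 22.9 ± 5.19 CPM in NK cells, 13.7 ± 6.52 in T cells, 5.17 ± 2.53 in macrophages and 2.23 ± 1.69 in monocytes. The helicase cofactor CDC45 was at 27.8 ± 6.21 CPM in NK cells, 15.5 ± 7.32 in T cells, 6.64 ± 1.42 in macrophages and 2.62 ± 1.70 in monocytes. Both had their lowest mean in monocytes. The catalytic subunit of polymerase alpha, POLA1, was at 94 ± 23.9 CPM in NK cells, 68.4 ± 15.6 in T cells, 73.2 ± 17.5 in macrophages and 31.4 ± 7.01 in monocytes. FEN1, the flap nuclease of the lagging strand, had 38.1 ± 10.4 CPM in NK cells, 25.8 ± 9.32 in T cells, 14.3 ± 4.65 in macrophages and 6.90 ± 3.04 in monocytes. The thymidine kinase TK1 had 57.3 ± 16 CPM in NK cells, 37.3 ± 11.5 in T cells, 44.8 ± 8.47 in macrophages and 15.3 ± 7.76 in monocytes. UHRF1, which keeps DNA methylation through replication, had 28.3 ± 6.01 CPM in NK cells, 16.4 ± 5.89 in T cells, 21 ± 4.15 in macrophages and 7.99 ± 3.99 in monocytes. For both genes, as for POLA1, the macrophage mean was above the T cell mean, a comparison that was not tested. CLSPN, an adaptor of the replication checkpoint, had 135 ± 17.6 CPM in NK cells, 81.2 ± 33.9 in T cells, 38.3 ± 6.88 in macrophages and 15.4 ± 7.82 in monocytes. The cyclin CCNE2 had 21.9 ± 5.76 CPM in NK cells, 12.7 ± 5.59 in T cells, 10.7 ± 3.08 in macrophages and 4.36 ± 2.22 in monocytes.

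**Figure D2:**
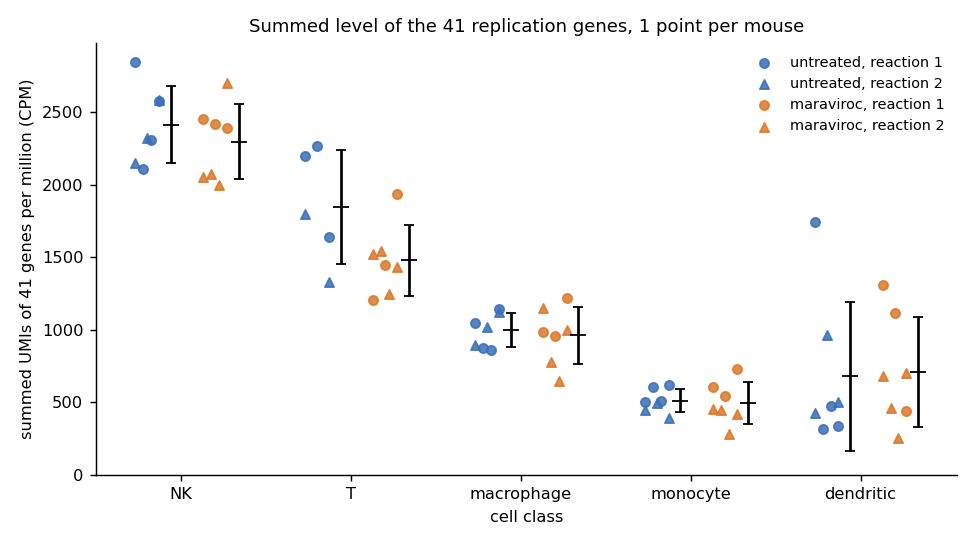
Summed level of the 41 genes in CPM, 1 point per mouse, by cell class, treatment (color) and reaction (circle for 1, triangle for 2), with bars for mean and SD. NK sums lie from 1997 to 2844 and monocyte sums from 281 to 729, and untreated and treated mice overlap in each class.

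Differences between classes were tested in 1 edgeR fit over 93 sums of 8 classes, with the mouse as a block and the 3 T subsets given equal weight. Of 41 genes, 39 passed the filter on low counts, all but CCNE1 and GINS3. NK cells exceeded T cells for 30 of these 39 at adjusted p under 0.05, and 0 were lower, beside 21.1% higher and 18.3% lower of all 12296 genes. The median log2 difference was 0.54 over the 39 and 0.01 over all genes. NK cells were not tested against CD8 T cells alone, and the summed levels of these 2 groups overlapped. RRM2 was higher in NK cells in 12 of 12 mice, with a log2 difference of 1.0 ± 0.17 (SE, edgeR adjusted p = 4.05e-07). CDC45, part of the active helicase, differed by 0.93 ± 0.19 and MCM7 by 0.86 ± 0.13. RPA2 (0.09 ± 0.10), RPA3 (0.11 ± 0.08) and MCM6 (0.11 ± 0.13) were among the 9 that did not pass. By role, both loading factors, both lagging-strand enzymes and 5 of 6 helicase subunits passed, against 4 of 7 clamp, clamp loader and single-strand binding genes. In reaction 1 alone 13 genes passed, and in reaction 2 alone 24. Here and below, counts from a single reaction or another alternative fit come without the share of all genes, unless it is printed. They show how the count depends on the fit and are not read as a result about the members.

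Against macrophages, NK cells were higher for 32 of the 39 genes and lower for 1, beside 36.1% and 38.7% of all genes. The difference was largest for DTL, a ubiquitin ligase adaptor that targets CDT1, at 1.92 ± 0.17 on the log2 scale, then for the uracil-removing enzyme UNG (1.88 ± 0.18), the loading factor CDC6 (1.84 ± 0.21) and DNA ligase LIG1 (1.76 ± 0.14). LIG1 was at 58.3 ± 9.51 CPM in NK cells and 13.8 ± 4.08 in macrophages, and higher in NK cells in 14 of 14 mice. The gene lower in NK cells was POLD1, the catalytic subunit of polymerase delta, with a difference of -0.76 ± 0.16 (edgeR adjusted p = 1.78e-05). It stood at 12.3 ± 4.05 CPM in NK cells and 17 ± 3.85 in macrophages. Among the 6 genes that did not pass were TK1 (0.05 ± 0.15), POLA1 (0.06 ± 0.13) and UHRF1 (0.12 ± 0.16). Fitted differences include the TMM scaling between classes, so they can differ from the ratio of CPM means: TK1 was at 57.3 ± 16 CPM in NK cells and 44.8 ± 8.47 in macrophages.

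Macrophages exceeded monocytes for 37 of 39 genes, with 0 lower, beside 29.4% higher and 24.4% lower of all genes, and the median log2 difference was 1.08. GINS1, of the helicase activator complex, differed most (1.93 ± 0.17, at 15 ± 5.06 against 3.88 ± 1.13 CPM), followed by the thymidine kinase TK1 (1.62 ± 0.16). RPA2 (-0.06 ± 0.10) and the polymerase delta subunit POLD3 (0.07 ± 0.11) did not pass. Fitted alone for treatment, monocytes had 29 of 41 members above the filter on low counts, with 1 of 6 helicase activation genes. Members with low counts in monocytes, such as GINS1, may have entered the class fit through classes where they were high. The count of 37 and the folds of such members are therefore a description only. Dendritic cells were below macrophages for 25 genes, among them POLA1 (-1.35 ± 0.19, lower in 14 of 14 mice), POLD1 (-1.42 ± 0.23) and GINS1 (-1.41 ± 0.25), beside 32.9% of all genes. They were above macrophages for 1, RPA2 (0.36 ± 0.13, edgeR adjusted p = 0.018), beside 21.1%. A mouse gave between 10 and 55 dendritic cells, and in reaction 1 alone 3 genes passed. Fitted alone for treatment, dendritic cells had 13 of 41 members above the filter on low counts. Members with low counts there, such as GINS1 (5.96 CPM) and POLD1 (6.35), may have entered the class fit through classes where they were high. The count of 25 and the folds of such members are therefore a description only.

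Among T cells, those with CD8 exceeded the CD8-negative ones for 34 of 39 genes, with 0 lower, beside 14.6% higher and 14.9% lower of all genes. The median log2 difference was 0.74. CDC45 (1.26 ± 0.25) and DTL (1.26 ± 0.19) differed most, PCNA differed by 0.67 ± 0.14, and TK1 (0.38 ± 0.20) was among the 5 that did not pass. All 6 helicase subunits and all 7 polymerase and primase genes passed. In reaction 1 alone 13 genes passed. FOXP3 T cells held at least 1 FOXP3 UMI and could hold 1 CD8 UMI. In reaction 1 their median was 7033 UMIs per cell, against 3795 in the other CD8-negative T cells. These 2 subsets differed in 1 gene. TK1 was higher in FOXP3 T cells by 0.97 ± 0.24 (edgeR adjusted p = 0.00122), at 45 ± 15.6 against 23.4 ± 17.2 CPM and in 10 of 11 mice, beside 10.7% of all genes higher and 11.8% lower. DTL came next at 0.64 ± 0.25 (edgeR adjusted p = 0.0525). The count of 1 of 39 lies below the share of all genes and is not read as a result about the members. With reaction 1 alone 0 genes passed by edgeR, with 0 at unadjusted p under 0.05, and DESeq2 over both reactions called 1.

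A list of 40 other replication genes was read beside the members. In NK against T cells 26 of 39 tested were higher and 0 lower, in NK cells against macrophages 37 and 0, in macrophages against monocytes 33 and 1, and in dendritic cells against macrophages 1 and 20. The gene opposite to the rest in both myeloid comparisons was POLE4, a small polymerase epsilon subunit, with log2 differences of -0.65 and 0.63. Of 25 mitosis genes, 25 were higher in NK than in T cells and 23 higher in NK cells than in macrophages. In macrophages 25 were higher than in monocytes, and in dendritic cells 24 were lower than in macrophages. Of all genes, 21.1% were higher and 18.3% lower in NK against T cells, and 36.1% and 38.7% in NK cells against macrophages. The shares were 29.4% and 24.4% in macrophages against monocytes, and 21.1% and 32.9% in dendritic cells against macrophages. Low counts in monocytes and dendritic cells limit these lists too.

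The classes also differed in the share of cells with replication RNA. Each cell was thinned to 2000 UMIs, and cells with at least 5 member UMIs were counted. Their share was 34.2 ± 6.49% of NK cells (n = 14), 18.5 ± 6.71% of T cells (n = 12), 12.6 ± 3.37% of macrophages, 7.73 ± 9.10% of dendritic cells and 4.33 ± 2.82% of monocytes (n = 14 each). Without thinning the mean shares were 58.8%, 42.3%, 43.9%, 46.4% and 21.9%. Thinning left out 67 NK cells, 108 T cells, 629 macrophages, 1 dendritic cell and 608 monocytes. The NK share exceeded the T share by 15.9 ± 7.25 percentage points and did so in 12 of 12 mice. It exceeded the macrophage share by 21.6 ± 5.94 points, in 14 of 14 mice. Macrophages exceeded monocytes by 8.27 ± 3.37 points, in 14 of 14 mice, whereas dendritic cells exceeded macrophages in 4 of 14. The monocyte share was 6.58 ± 1.95% in reaction 1 and 2.08 ± 1.29% in reaction 2 (n = 7 each).

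Among thinned cells that held at least 5 member or 3 mitosis UMIs, the mean share with mitosis RNA alone was higher in macrophages and monocytes than in NK and T cells. In NK cells 27.9 ± 7.14% held replication RNA only, 47.5 ± 10.2% both and 24.6 ± 6.09% mitosis RNA only (n = 14). In T cells the shares were 31.6 ± 7.11%, 41.1 ± 5.74% and 27.3 ± 6.26% (n = 10). In macrophages they were 23 ± 5.75%, 30.5 ± 7.02% and 46.5 ± 9.34% (n = 13), and in monocytes 25.3 ± 14.8%, 26.4 ± 14.9% and 48.3 ± 15.8% (n = 10). Being scores over the list, these shares are a description and were not tested.

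Cells of a class were next split by the 25 mitosis genes, none of which is a member. Cells with at least 2 mitosis UMIs were set against cells with 0, paired by mouse. In NK cells 26 of 41 members could be tested and 26 were higher, beside 12.1% of all genes. In T cells the counts were 39 of 39 (13.5% of all genes), in macrophages 40 of 40 (13.1%) and in monocytes 32 of 33 (15.8%). With no filter on low counts 41 of 41 were higher in NK cells, T cells and macrophages, and 37 of 41 in monocytes. Deeper cells reach 2 mitosis UMIs more easily. When cells were split after thinning, fewer members passed the filter, and 11 of 11, 21 of 21, 25 of 26 and 12 of 13 were higher. RRM2 stood at 272 ± 55.5 CPM in NK cells with mitosis RNA and 2.41 ± 4.09 in those without (2205 UMIs against 4), and at 175 ± 45.3 and 1.69 ± 2.31 CPM in T cells (2245 UMIs against 11). With so few UMIs on the side without mitosis RNA, no fold is given for these. RRM2 thus entered the NK and T cell tests through the side where it was high. Other members with low counts there may have done so too. The counts of members higher are therefore given as a description only. In macrophages RRM2 was at 93.1 ± 25.7 and 4.91 ± 2.90 CPM (higher in 14 of 14 mice, 1849 UMIs against 49). There too it may have entered the test through the side where it was high, so no fold is given. The difference was small for RPA2 in NK cells (0.69 ± 0.23) and T cells (0.61 ± 0.13) and for POLD3 in macrophages (0.65 ± 0.10). In dendritic cells 4 mice of reaction 2 had enough cells on both sides, and 2 of 16 members tested passed, beside 0.177% of all genes. They were RRM2, with 60 UMIs against 2, and TYMS, with 69 against 0, so both entered the test through the side where they were high, and the calls are not read as a result.

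When cells without any mitosis UMI were compared between classes, 13 of 41 members passed the filter on low counts. These cells were selected after the data had been seen. NK cells exceeded T cells for 2 of the 13, MCM4 (1.36) and RFC2 (0.76), and were lower for 0, beside 11.9% higher and 9.35% lower of all genes. Against macrophages, NK cells were higher for 6, among them MCM6 (1.64), MCM3 (1.47) and the primase subunit PRIM1 (1.38), and lower for POLA1 (-0.99) and POLD3 (-0.86), beside 29.8% higher and 34.6% lower of all genes. Macrophages exceeded monocytes for 4, MCM4 (1.60), POLA1 (1.15), MCM6 (0.70) and MCM5 (0.54), and were lower for 0, beside 22.9% higher and 24.3% lower of all genes. Dendritic cells were above macrophages for MCM5 (1.03) and RPA2 (0.81) and below them for MCM4 (-1.68) and POLA1 (-1.35), beside 22.6% higher and 19.3% lower of all genes. CD8 and CD8-negative T cells had 0 of 13 called by edgeR, with 2 at unadjusted p under 0.05, beside 3.55% higher and 5.34% lower of all genes. FOXP3 T cells were lower than the other CD8-negative T cells for MCM6 (-1.01) and higher for 0, beside 6.73% higher and 8.21% lower of all genes. In most of these comparisons the counts of 13 lie near or below the share of all genes. These are NK against T cells, macrophages against monocytes, dendritic cells against macrophages and both comparisons among T cells. Their counts are not read as a result about the members. The 6 higher and 2 lower of 13 in NK cells against macrophages rest on few genes and are a description only.

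Members did not all follow the mitosis genes in step. Thinned cells were placed in 4 bins by their mitosis UMIs among 2000, and levels were taken from all UMIs of the cells in a bin, with exact Poisson 95% intervals that cover counting error only. In NK cells RRM2 was at 4.13 (2.31 to 6.82) CPM in the 520 cells with 0 mitosis UMIs, 66 (56.4 to 76.9) with 1 to 2, 363 (335 to 392) with 3 to 7 and 467 (443 to 492) in the 236 cells with 8 or more. TYMS, which makes thymidylate, was at 315 (289 to 343) and 290.3 (271 to 310.2) CPM in the last bins. MCM5 instead went from 58.4 (50.8 to 66.8) CPM through 120.1 (107 to 134) and 141 (124 to 159.6) back to 60.6 (52.1 to 70.1). GINS2, of the helicase activator complex, was at 90.1 (76.5 to 105) CPM with 3 to 7 mitosis UMIs and 26 (20.5 to 32.4) with 8 or more. UNG went from 48.3 (38.4 to 59.8) to 9.99 (6.74 to 14.3) CPM over the same step, below its 18.2 (14.1 to 23.1) in cells with 0. In T cells GINS2 was at 104 (90.7 to 118) and then 25.3 (20 to 31.5) CPM, and in macrophages at 46.7 (39.7 to 54.7) and 16.8 (12.9 to 21.7).

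**Figure D3:**
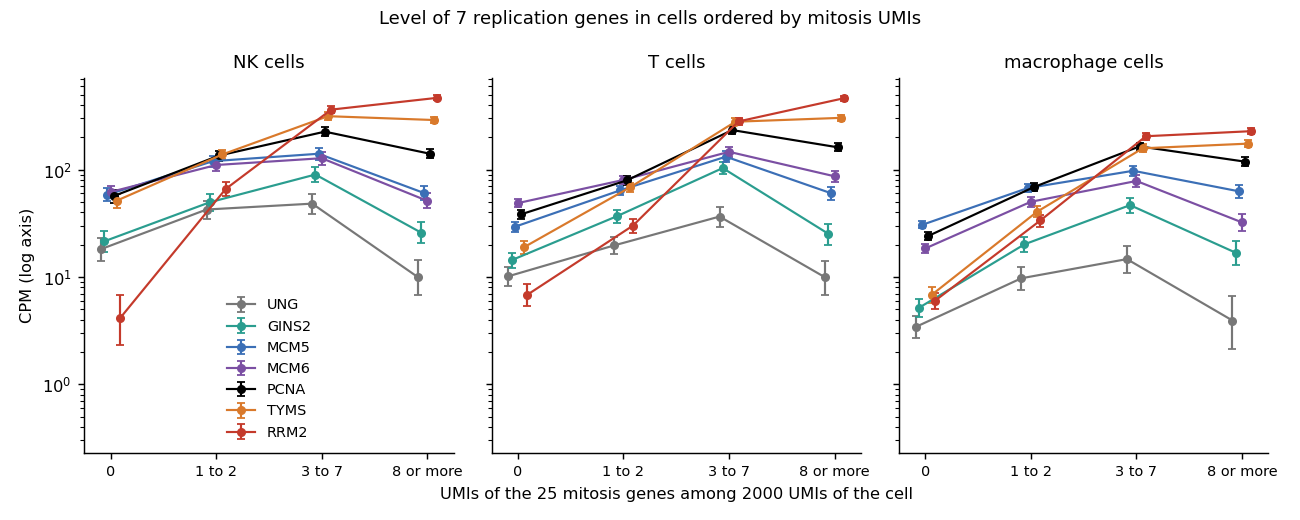
Level in CPM (log axis) of 7 member genes in NK cells, T cells and macrophages, by the number of UMIs of 25 mitosis genes among 2000 UMIs of the cell, with exact Poisson 95% intervals. RRM2 in NK cells climbs to 467 CPM in the last bin, where UNG falls to 9.99.

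Cells with 8 or more mitosis UMIs were then tested against cells with 1 to 7, paired by mouse, a comparison added after these bins had been seen. In NK cells of 12 mice 36 members were tested, 2 were higher and 9 lower, beside 7.41% higher and 5.68% lower of all genes. Lower were UNG (-2.11 ± 0.28, in 12 of 12 mice), GINS2 (-1.37 ± 0.21), E2F1 (-0.97 ± 0.30), POLA1 (-0.67 ± 0.19) and 5 of 6 helicase subunits, with MCM2 at -1.53 ± 0.30 and MCM5 at -1.11 ± 0.16. In NK cells with 8 or more mitosis UMIs, UNG (9.99 CPM), MCM2 (16), E2F1 (17.3) and GINS2 (26) were low. They may have entered the test through the side where they were high, so their folds are a description only. RRM2 (1.36 ± 0.17, 12 of 12 mice) and TYMS (0.52 ± 0.11) were higher. In T cells of 9 mice 39 members were tested, 13 were higher and 2 lower (8.34% and 6.63% of all genes). UNG (-1.22 ± 0.32) and GINS2 (-1.16 ± 0.20, in 9 of 9 mice) were lower, and 0 of 6 helicase subunits passed. The 4 genes that supply nucleotides, RRM1, RRM2, TYMS and TK1, were higher, with RRM2 at 2.26 ± 0.15. DESeq2 called 9 higher and 2 lower in T cells, and edgeR in reaction 1 alone 3 and 2. In macrophages of 13 mice 35 members were tested, 6 were higher and 5 lower (7.81% and 8.76%). RRM2 (1.26 ± 0.15), TYMS (1.11 ± 0.13) and TK1 (0.93 ± 0.14) were among the higher ones, and MCM6 (-0.94 ± 0.17), MCM3 (-0.84 ± 0.19), POLA1 (-0.80 ± 0.14), GINS2 (-0.77 ± 0.22) and DTL (-0.66 ± 0.20) were lower. In cells with 8 or more, UNG (9.92 CPM) and GINS2 (25.3) of T cells and GINS2 (16.8) of macrophages were low too, with the same limit. RRM2 and TYMS were called higher, and GINS2 lower, in all 3 classes. The comparison was built on bins of these same cells, so this is a description only. The counts of 2 of 36 higher in NK cells and 2 of 39 lower in T cells lie below the share of all genes. Those counts are not read as a result about the members. Whether the classes differ from each other between few and many mitosis UMIs was not tested.

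**Figure D4:**
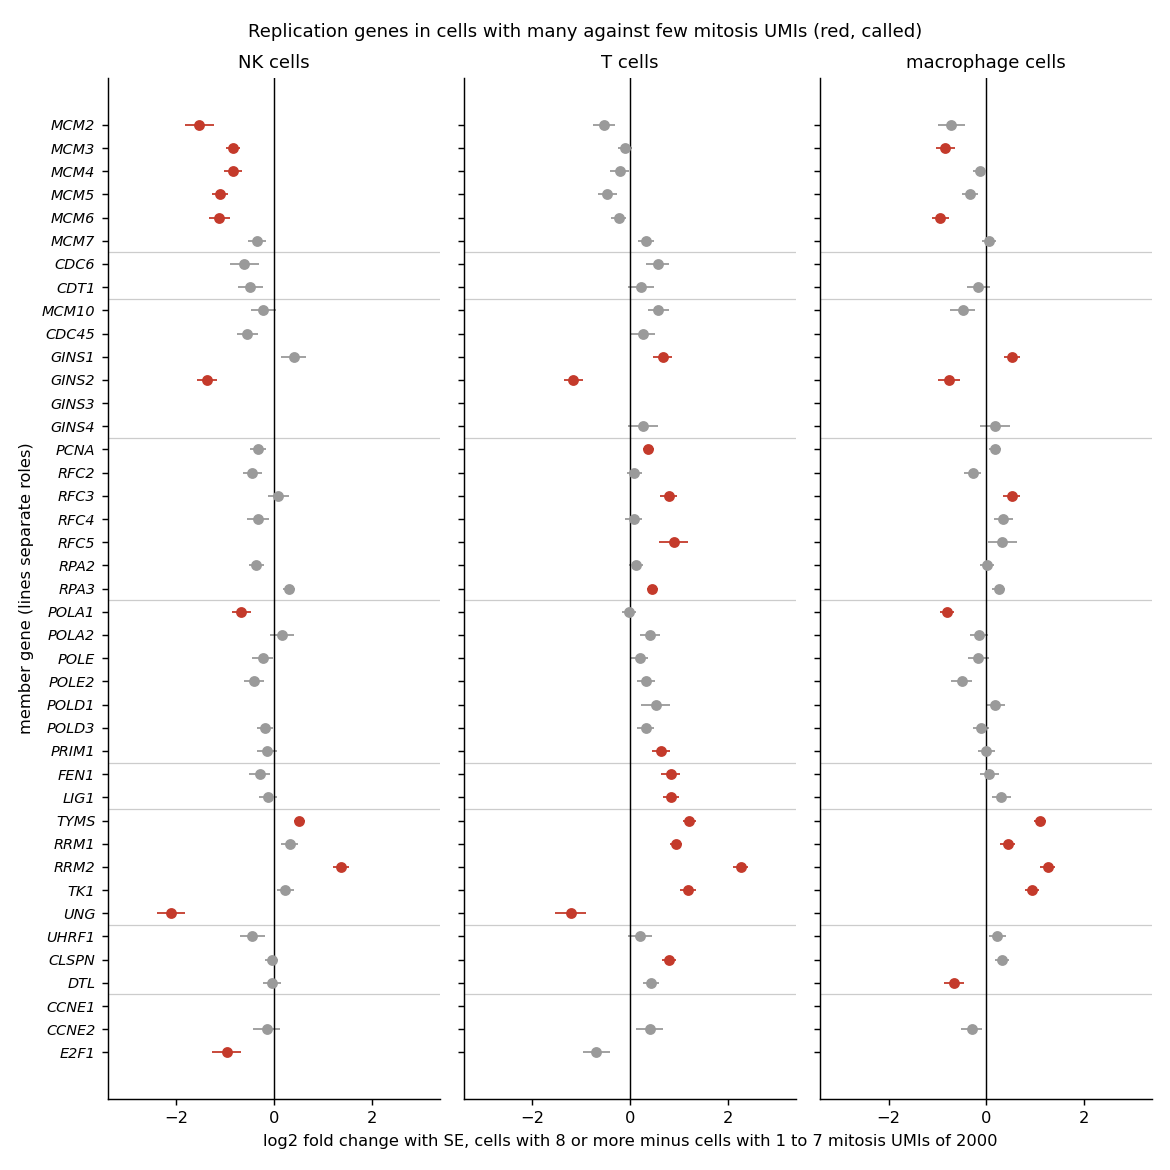
Log2 fold change with SE of each tested member between cells with 8 or more and cells with 1 to 7 mitosis UMIs of 2000, in NK cells, T cells and macrophages, with genes at adjusted p under 0.05 in red. GINS2 is red and left of 0 in all 3 panels, and RRM2 red and right of 0.

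The study asked what maraviroc does in these tumors, and for the 41 genes no difference between treated and untreated mice passed the test in any class. The test was edgeR's quasi-likelihood test on mouse sums with a term for the reaction. In NK cells 0 of 39 tested members were called (0% of 8553 genes), in T cells 0 of 40 (0% of 10754), in macrophages 0 of 40 (0% of 11384), in monocytes 0 of 29 (0% of 10303) and in dendritic cells 0 of 13 (0% of 5768). At an unadjusted p under 0.05 there were 2, 6, 0, 2 and 1 members, and 293, 456, 366, 370 and 624 of all genes. DESeq2 also called 0 members in each class. The SE of a member's log2 difference had a median of 0.16 in NK cells, 0.18 in T cells, 0.17 in macrophages, 0.24 in monocytes and 0.45 in dendritic cells.

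In NK cells the summed level was 2413 ± 267 CPM in untreated mice (lowest 2107, median 2323, highest 2844) and 2297 ± 260.2 in treated mice (1997, 2387, 2697), n = 7 each. Macrophages stood at 995 ± 117 CPM (863, 1021, 1143) and 960.5 ± 198 (647, 987, 1215), and monocytes at 511 ± 79.9 (395, 501, 615) and 497 ± 145 (281, 451, 729). The groups overlapped in each of these classes. Medians of the members' log2 differences were -0.04 in NK cells, 0.01 in macrophages and 0.03 in monocytes. In NK cells RRM1, the large subunit of ribonucleotide reductase, was at 95.6 ± 13.1 CPM untreated and 75.9 ± 14 treated (-0.32 ± 0.12), and MCM6 at 68.4 ± 14.5 and 87.5 ± 11 (0.33 ± 0.13), both with an edgeR adjusted p of 1.0. In dendritic cells MCM5 was at 36.5 ± 18.9 CPM untreated and 66.8 ± 33.4 treated (0.90 ± 0.30, edgeR adjusted p = 0.314).

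**Figure D5:**
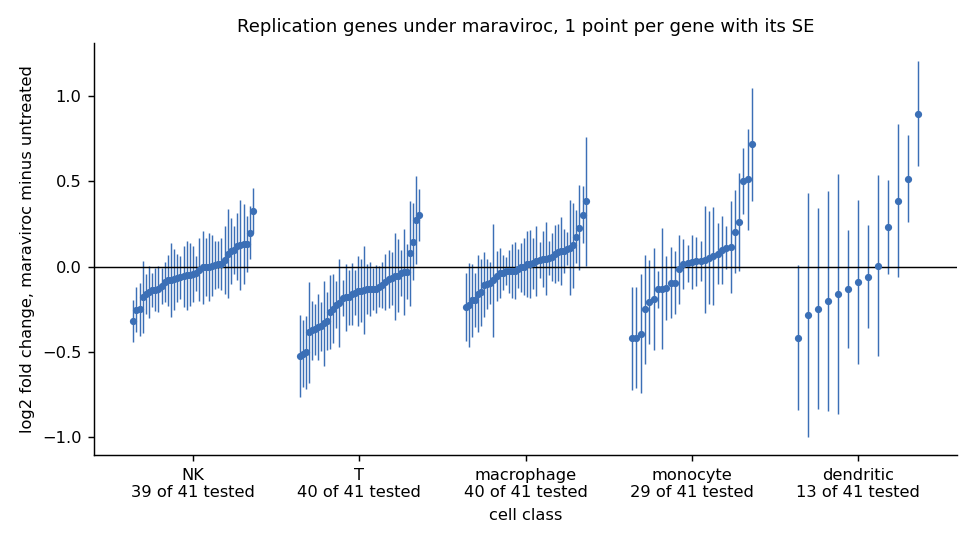
Log2 fold change of each tested member, maraviroc minus untreated, with its SE, sorted within each class, with the number tested of the 41 genes under each. Points lie on both sides of 0 in each class, 4 of 40 above 0 in T cells, and 0 passed adjusted p under 0.05. Points of a class come from the same mice and are not independent.

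T cells as a whole class had lower values under maraviroc that did not pass the test. Their summed level was 1328, 1639.8, 1798, 2197 and 2267 CPM in the 5 untreated mice with enough T cells, and ran from 1205 to 1938 CPM with a median of 1446 in the 7 treated mice, so the groups overlapped. Of 40 members 4 had a log2 difference above 0, and the median was -0.14, with -0.26 in reaction 1 and -0.11 in reaction 2. The median over all genes was 0.00. The 40 values come from the same mice and are not independent, so their directions are not separate observations. The members at unadjusted p under 0.05 were MCM10 (-0.52 ± 0.24), UNG (-0.51 ± 0.20), POLE (-0.50 ± 0.21), TK1 (-0.37 ± 0.17), RRM2 (-0.37 ± 0.15) and GINS2 (-0.35 ± 0.14), each with an edgeR adjusted p of 1.0. RRM2 was at 90.8, 117, 138, 142 and 144 CPM in untreated mice and between 55.2 and 111 CPM, median 92.8, in treated mice. In reaction 1 its difference was -0.62 ± 0.20 and in reaction 2 it was -0.18 ± 0.18. The 25 mitosis genes had a median of -0.35, with 0 called by edgeR and 13 at unadjusted p under 0.05. CD8 T cells made up 29 ± 8.67% of T cells in untreated mice (n = 5) and 21.5 ± 7.68% in treated mice (n = 7), and the part of this makeup in the values was not tested. Fewer dividing cells and less RNA per cell cannot be told apart in such sums. By subset, the summed level was 2564 ± 418 CPM untreated (n = 5) and 2235 ± 281 treated (n = 6) in CD8 T cells, 1495 ± 629.5 (n = 5) and 1088 ± 226 (n = 6) in other CD8-negative T cells, and 1390 ± 331 (n = 5) and 1408 ± 239.8 (n = 7) in FOXP3 T cells, where the treated mean was not the lower one. The share of T cells with at least 5 member UMIs was 22.1 ± 7.01% in untreated mice and 15.9 ± 5.57% in treated mice, a difference of -6.21 points. Within reactions the difference was -7.54 points in reaction 1 (3 untreated and 3 treated mice) and -2.48 in reaction 2 (2 and 4). In reaction 1 the 3 treated mice had 25, 37 and 191 thinned T cells, with shares of 16, 10.8 and 27.7%. The untreated mice of that reaction stood between 19.7 and 29.5%. The share was higher in reaction 1, 22 ± 7.63% against 15 ± 3.4%, so the pooled difference mixes treatment with reaction.

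Over the 93 sums, the genes outside the list whose level followed the summed members most closely were NASP (Pearson's r = 0.95), HELLS (0.95), ATAD2 (0.95), PCLAF (0.94), FANCI (0.94), CENPK (0.93), WDR76 (0.93), DUT (0.93), HMGB2 (0.93) and NUSAP1 (0.93), out of 7223 genes at 20 CPM or more. NASP is a histone chaperone and PCLAF binds PCNA. Members at that level, which are themselves part of the sum, had r from 0.62 to 0.96. The sums share mice, libraries and depth, so r is given as a description, with no p.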

How the data were processed

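Single human CD45+ cells of 14 mice were profiled in 2 droplet reactions with hashtag antibodies. The authors deposited UMI counts per gene and hashtag, not normalized, made with Cell Ranger 9.0.1 on GRCh38. Whether introns were counted is not given in the sources used here, and no column of other values was used. Hashtags were assigned with HTODemux (Seurat 5.3.0, quantile 0.99), which gave 10631 and 3380 doublets and 5754 and 180 negatives among 29120 and 13582 barcodes. Doublets within 1 hashtag were not called. Class rules limited markers of other lineages without excluding them. NK cells needed at least 2 times as many NK as T marker UMIs, and T cells the reverse. Cells had over 600 and at most 6000 genes and under 12.5% mitochondrial UMIs. Class thresholds were set after marker counts had been seen. UMIs were summed per mouse and class (at least 10 cells) and tested with edgeR 4.0.16 (quasi-likelihood, TMM, filterByExpr, Benjamini-Hochberg adjusted p under 0.05 over all genes), DESeq2 1.42.0 being an alternative, in R 4.3.3. Scripts were tested on simulated data. Alternatives were each reaction alone, other scaling, no filter, stricter classes, thinning, other thresholds and leaving out each mouse. Members and lists were chosen with earlier results of these data known. Genes named were 1 or 2 of each role, the members with the largest differences in a comparison and the 10 other genes most correlated with the summed members (log2 of CPM plus 10, mean of at least 20 CPM); those singled out for not passing a test were chosen after their values were seen.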

Additional observations from a re-analysis of the deposited data

Results flagged for a closer look

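For the summed members, PCNA, RRM2, MCM5, E2F1 and the share of cells with at least 5 member UMIs, the mice of each treatment and class were screened for a mouse far from the others, in 60 groups. In 5 groups 1 mouse stood apart, where chance alone marks about 1 group in 20. The 5 values came from 3 mice, all of reaction 1. E2F1 was at 35.0 CPM in the NK cells of 1 treated mouse and between 14.4 and 22.8 CPM in the other 6. In monocytes of another treated mouse E2F1 was 6.84 CPM, with the other treated mice between 0.362 and 2.92. The share of T cells with at least 5 member UMIs was 27.7% in that same mouse and between 10.8 and 16.2% in the others. In dendritic cells of untreated mice, PCNA reached 112 CPM in 1 mouse, with 6.81 to 42.8 in the others, and RRM2 reached 80.7 CPM in 1 mouse, with 0 to 27.3 in the others. Both dendritic values belong to 1 mouse with 14 dendritic cells.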

How the results depend on the processing

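The count of members called for maraviroc was 0 in each of 40 alternative fits over the 5 classes and in 68 fits that left out 1 mouse, so its range there is 0 to 0. No paired analysis was possible because untreated and treated groups are different mice with no shared replicate number, while fits between classes and between cells of a class hold the mouse as a block. Counts of members called moved by over 1.5 times as follows, and the cause was not tested except where fewer mice, cells or genes entered by construction. With reaction 1 alone NK against T cells gave 13, dendritic cells against macrophages 3, CD8 against CD8-negative T cells 13, FOXP3 against other T cells 0, and many against few mitosis UMIs 7 in NK cells, 5 in T cells and 7 in macrophages. With reaction 2 alone FOXP3 T cells gave 2 and the macrophages 5. Cells without mitosis UMIs gave 2 for NK against T cells, 8 for NK cells against macrophages, 4 for macrophages against monocytes, 4 for dendritic cells against macrophages and 0 for CD8. With no filter on low counts FOXP3 T cells gave 3, and cells with and without mitosis UMIs 41 in NK cells and 10 in dendritic cells. With no upper limit on detected genes FOXP3 T cells gave 2. Splitting after thinning gave 11 in NK cells, 21 in T cells, 25 in macrophages and 12 in monocytes. For the share of cells with member RNA, a minimum of 8 UMIs gave 14.8 points for NK cells against macrophages and 4.26 for macrophages against monocytes, and a minimum of 3 UMIs gave 13.1 for the latter. Dendritic cells were limited by their number, 10 to 55 a mouse, and GINS3 and CCNE1 by their low counts.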

Other observations

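Member levels in the cells outside the 5 tested classes were as follows. Over all 7343 cells that met no class the summed members stood at 1112 CPM and the mitosis genes at 1256 CPM, with a median of 3018 UMIs. Mast cells (198) had 1276 and 1086 CPM, B cells (141) 609 and 184 CPM, and plasmacytoid dendritic cells (154) 617 and 194 CPM. These are sums over cells of all mice, with no error over mice.

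Macrophages, T cells, monocytes and dendritic cells left out for holding more than 6000 detected genes had more member RNA per UMI. The NK cells left out, 8 and 9 in the reactions, did not. In reaction 2, 75 such macrophages stood at 2681 CPM against 996 in those kept, and 45 such T cells at 3024 against 1531 CPM. There, 30 such monocytes stood at 2018 against 421 CPM and 12 such dendritic cells at 2000.5 against 556. A list of 8 genes (cell cycle inhibitors, D cyclins and RB1) was compared between cells with 8 or more and 1 to 7 mitosis UMIs. In each class 7 were tested. In NK cells 1 was higher and 1 lower, in T cells 2 and 1, and in macrophages 1 and 1. Beside them stand 7.41% and 5.68%, 8.34% and 6.63%, and 7.81% and 8.76% of all genes. CDKN2C, an inhibitor of CDK4 and CDK6, was higher by 1.21 on the log2 scale in NK cells, 1.81 in T cells and 2.29 in macrophages. CDKN2A was also higher in T cells (0.50). CCND2 was lower in NK cells (-1.04) and T cells (-0.81), and CCND1 in macrophages (-1.21). This split was added after the bins of these same cells had been seen, so these values are a description only. CDKN2C may have entered the tests through the side where it was high. Counts of 1 or 2 of 7 are too few to set against the share of all genes.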
